A study of Rattus norvegicus with 179 samples.

Results

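The hippocampus of rats given unmodified Lactobacillus paracasei (LP) was compared with that of rats given buffer (CON). These are the 24 hippocampus libraries labelled LP or CON, 12 of each, out of 179 libraries from 5 tissues in the series. The LP groups were LPSed (no exercise, n = 6) and LPEx (treadmill exercise, n = 6), and the CON groups were CONSed (n = 6) and CONEx (n = 6). All 24 libraries came from aged male F344BN rats, 1 library per rat and tissue. Gavage was given 3 times/wk for 12 wk with the bacterium or the same volume of buffer, and exercised rats walked on a treadmill 5 days/wk. Sedentary rats spent time on a still treadmill. LP is the parent strain of a modified probiotic (LPA) that expresses angiotensin (1–7), so LP against CON asks what the bacterium does without its added peptide. The bacterium was given by mouth, and whether it reached or colonized any tissue was not measured in these counts.

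The hippocampus is the part of the brain that forms new episodic and spatial memories. Gut bacteria are thought to reach the brain through the vagus nerve, through immune signals, and through metabolites such as short-chain fatty acids and products of tryptophan. Bulk RNA from dissected tissue cannot tell fewer cells of a type from less RNA per cell.

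Total counts per library had a median of 16833453 and a range of 13203828 to 21779598. They averaged 17011500 in LP and 17074700 in CON, and a two-sided permutation test gave p = 0.954. The table gave Ensembl gene IDs alone. The reference tables at hand paired 0 of its 32545 IDs with a gene name, so genes are given by ID with no stated function, marker genes of hippocampal cell types could not be looked up, and no sequence is shown.

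No gene differed between LP and CON at a false discovery rate (FDR) < 0.10 among the 15718 genes tested. That background is 0% of genes called, by edgeR's quasi-likelihood F test with activity as a term, and the smallest FDR was 1. At an unadjusted p under 0.05 there were 434 genes (2.76%), 187 with a higher estimate in LP (1.19%) and 247 with a lower estimate (1.57%). With no difference at all, a share of 0.05 would be reached on average, and the share by edgeR was below it. Limma voom with a quality weight for each library called 0 genes (1401 at p under 0.05, 8.91%). The edgeR count of 434 rose to 747 without LPEx rat 3 (373 higher, 374 lower in LP). Its balance turned without CONEx rat 7 (200 higher, 170 lower), without LPEx rat 8 (218 and 197), and without CONSed rat 3 (205 and 203). DESeq2 called 1 gene (495 at p under 0.05), ENSRNOG00000058439, with a lower level in LP. Across all genes tested the median log2 fold change was 0.01, and 8123 estimates were above 0 and 7595 below.

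The spread between the 24 libraries bounded the size of differences that these tests leave possible. The median absolute log2 fold change was 0.11 and the median standard error (SE) 0.19. For 78.4% of genes the 95% confidence interval of LP over CON lay within 2-fold in both directions, and for the 1000 genes with the most counts this share was 99.2%. Among the 5717 genes with the fewest counts it was 45.6%. An absolute log2 fold change over 1 was estimated for 312 genes, and 278 of them were in that lowest class. Levels are given as CPM, read counts scaled to a common library size.

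**Figure D1:**
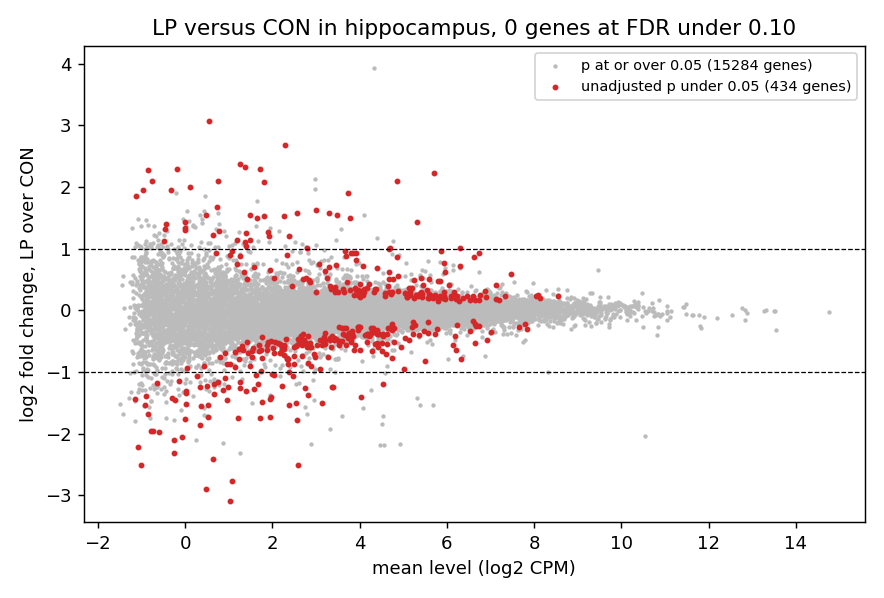
Log2 fold change of LP over CON (vertical axis) against mean level in log2 CPM (horizontal axis) for the 15718 genes tested. Red points are the 434 genes with an unadjusted p under 0.05, grey points the rest, and dashed lines mark a 2-fold difference; estimates spread most at low levels.

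Before single genes, the dissection was checked with genes that separate the 2 brain regions of the same study. In all, 100 genes exceeded the prefrontal cortex 3-fold or more in median hippocampal level, and 52 genes did so the other way round. On each set a library was placed on a scale where 0 is the prefrontal median and 1 the hippocampal median. LPSed rat 7 lay at -0.05 on the hippocampal genes and -0.06 on the prefrontal genes, which is the place of a prefrontal library. LPSed rat 13 lay at 0.65 and 0.41, and CONSed rat 3 at 0.57 and 0.44. These are the 3 libraries that were left out in the second set of fits. LPEx rat 10 lay at 0.47 on the hippocampal genes and 0.98 on the prefrontal genes, so it was low on the hippocampal set alone. The other 20 libraries lay between 0.87 and 1.10 on the hippocampal genes.

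**Figure D2:**
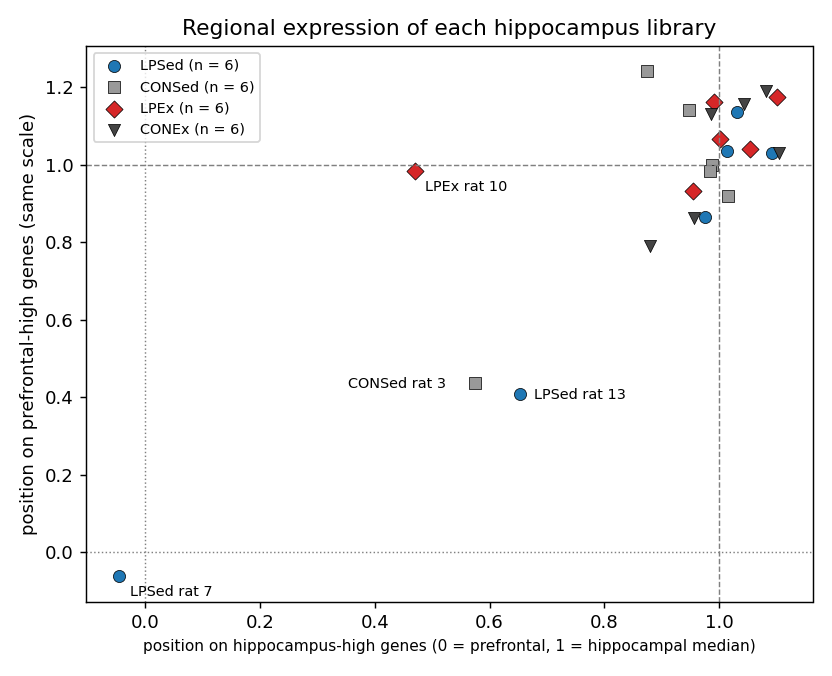
Position of each hippocampus library on genes high in hippocampus (horizontal axis) and on genes high in prefrontal cortex (vertical axis), where 0 is the median of prefrontal libraries and 1 that of hippocampal libraries. Points are libraries (n = 6 per group); LPSed rat 7 sits at the prefrontal end, and LPSed rat 13, CONSed rat 3, and LPEx rat 10 lie apart from the cluster near 1.

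Both sets of region genes were then followed in the group comparison. For the 52 prefrontal genes the median log2 fold change of LP over CON was 0.33, with 46 estimates above 0 and 6 below, against a median of 0.01 over all genes tested. For the 100 hippocampal genes the median was -0.15, with 22 above 0 and 78 below. Without the 3 libraries these medians were -0.01 and -0.02. In sedentary rats alone the prefrontal genes had a median of 0.73, and in exercised rats alone -0.08. At an unadjusted p under 0.05, 5 of the 52 prefrontal genes (9.62%, against 2.76% of all genes tested) had a higher estimate and 0 a lower one, and 0 of the 100 hippocampal genes did in either direction. On average the position on the prefrontal genes was 0.90 ± 0.36 in LP and 0.99 ± 0.22 in CON (SD, n = 12 each, two-sided permutation p = 0.487).

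Leaving out the 3 libraries did not bring any gene past the threshold. With 10 LP and 11 CON libraries, 0 of 16099 genes had an FDR < 0.10, and 373 had an unadjusted p under 0.05. Of the 434 genes at p under 0.05 in all libraries, 222 were at p under 0.05 without the 3, all in the same direction. That is 51.2% of the first list and 62.4% of the 356 genes of the second list that both fits tested. Without LPEx rat 10 as well, an alternative chosen after the data were seen, 0 genes passed, 140 estimates at p under 0.05 were higher in LP, and 327 were lower.

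Of the 4 genes named for LP versus CON, ENSRNOG00000015201 had the highest level. It was measured at 16.4, 16.7, 23.6, 12.9, 8.75, and 18 CPM in LPSed and 20.1, 13.6, 13.4, 15.5, 54.5, and 19.7 CPM in LPEx, against 7.08, 9.14, 12.3, 10.4, 8.24, and 13.7 CPM in CONSed and 8.49, 10.1, 12.6, 13.7, 13.5, and 11.8 CPM in CONEx. The groups overlapped, but 8 of 12 LP libraries were above the highest CON library and 11 of 12 were above the CON median. Its log2 fold change was 0.82 ± 0.21 (SE, FDR = 1 by edgeR). LPEx rat 10 had the highest value, and without it and the 3 libraries the log2 fold change was 0.42 (FDR = 1). The gene was at a median of 13.6 CPM in hippocampus and 15.8 CPM in prefrontal cortex of all 3 treatments, with medians of at most 0.44 CPM in colon, liver, and muscle. LPA rats, which share no libraries with this test, had a median of 13 CPM, between LP at 16.6 CPM and CON at 11.1 CPM. In the prefrontal cortex, LP rats had a median of 16.4 CPM and CON rats 15.8 CPM.

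ENSRNOG00000014452 was the other gene with a level above background in most libraries. It had 2.85, 2.29, 2.97, 4.32, 5.04, and 4.98 CPM in LPSed and 2.39, 3.61, 4.18, 5.1, 1.42, and 3.65 CPM in LPEx, against 7.5, 2.92, 4.65, 4.31, 13.2, and 5.7 CPM in CONSed and 8.27, 8.25, 7.31, 6.34, 4.46, and 5.39 CPM in CONEx. All 12 LP libraries lay below the CON median of 6.02 CPM, and 8 of 12 CON libraries lay above the highest LP library. The log2 fold change was -0.88 ± 0.24 (FDR = 1), and it was -0.89 without the 3 libraries. LPA rats had a median of 4.48 CPM. Colon (13.4 CPM) and liver (9.12 CPM) had higher medians than hippocampus (4.45 CPM) for this gene.

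The remaining pair of named genes was near 0 in most libraries and high in a few. ENSRNOG00000008873 reached 13.8 CPM in LPSed rat 8, 12.3 CPM in LPSed rat 13, 12.2 CPM in LPEx rat 8, and 3.66 CPM in LPEx rat 6. The other 8 LP libraries lay between 0.25 and 2.33 CPM, and the 12 CON libraries between 0.25 and 1.59 CPM. So 4 of 12 LP and 0 of 12 CON libraries were at 3 CPM or more (log2 fold change 2.32 ± 0.60, FDR = 1). In the prefrontal cortex 5 of 12 LP and 4 of 12 CON libraries were at 3 CPM or more, and 2 of 12 LPA hippocampus libraries were. Of the 4 LP rats with a high hippocampus, 3 were also at 3 CPM or more in the prefrontal cortex.

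ENSRNOG00000058439 had the opposite arrangement. It was at most 0.80 CPM in the 12 LP libraries, with a median of 0.26 CPM. In CON it reached 14.8 CPM in CONEx rat 7, 11.3 CPM in CONEx rat 10, 4.83 CPM in CONSed rat 7, 4.47 CPM in CONSed rat 6, and 4.02 CPM in CONSed rat 4, and the other 7 CON libraries were at most 1.05 CPM. The log2 fold change was -3.09 ± 0.77 (FDR = 1 by edgeR). DESeq2 gave an FDR of 0.0741. LPA hippocampus libraries were at 3 CPM or more in 3 of 12 cases, and prefrontal libraries in 1 of 12 LP and 3 of 12 CON cases. Among the LP and CON rats, CONEx rat 10 was the 1 rat at 3 CPM or more in both brain regions.

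**Figure D3:**
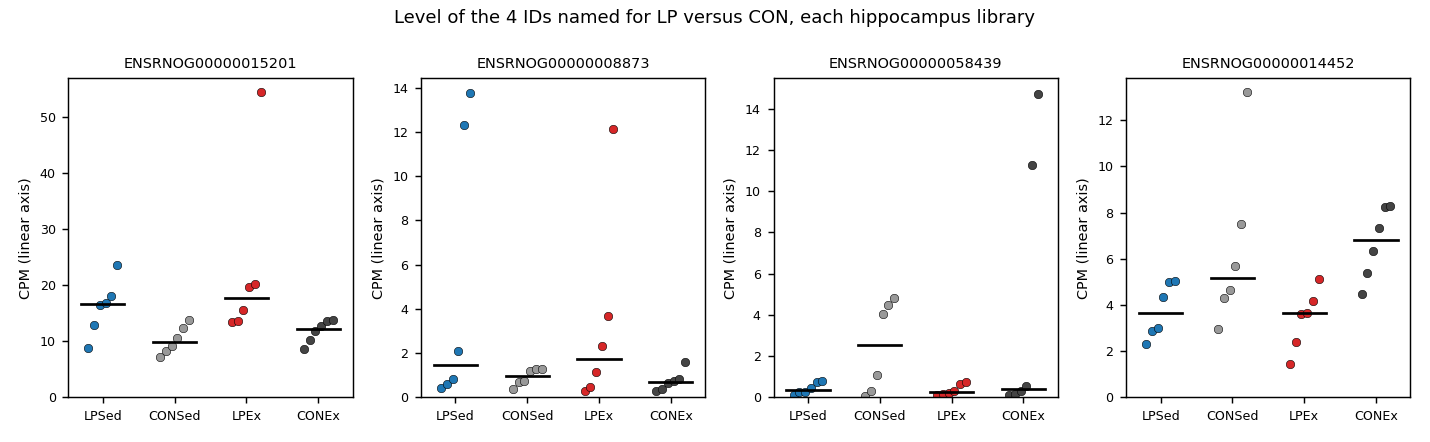
CPM (linear axes from 0) of the 4 IDs named for LP versus CON in each hippocampus library, with group medians as bars (n = 6 per group). ENSRNOG00000015201 and ENSRNOG00000014452 shift across many libraries, and ENSRNOG00000008873 and ENSRNOG00000058439 are set by a few libraries each.

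Not 1 gene had all 12 LP libraries above or all 12 below the 12 CON libraries, among the 15718 tested. Of the 312 genes with an absolute log2 fold change over 1, 46 had 1 library at least 5-fold above the next, and the median ratio of the highest library to the next was 1.72. Of the 312 genes, 61 had their highest level in LPEx rat 10, and in 36 of those this level was at least 5-fold above the next library. CONEx rat 7 was the highest library for 54 of the 312 genes and CONEx rat 5 for 36, with 0 at least 5-fold above the next. An unadjusted p under 0.05 was found for 113 of the 312 genes, against 434 of the 15718 tested (2.76%). The 312 were chosen by the size of the same estimate, so this comparison tests nothing.

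Of those libraries, LPEx rat 10 and CONEx rat 7 also had the highest shares of counts in genes enriched in liver. Genes enriched in liver (382 genes whose liver median was 10-fold or more over each remaining tissue) took 1.09% of counts in LPEx rat 10 and 1.91% in CONEx rat 7, against 0.20% to 0.97% in the other 22 libraries. A single gene, ENSRNOG00000016275, took 0.73% of counts in LPEx rat 10 and 1.38% in CONEx rat 7. Without that gene the liver-enriched share was 0.36% in LPEx rat 10 and 0.54% in CONEx rat 7, both within the range of the other 22 libraries (0.20% to 0.54%). Brain-enriched genes (782) took 15.3% in LPEx rat 10 and 18.4% to 23.5% in the others. The liver-enriched share averaged 0.41 ± 0.23% in LP and 0.63 ± 0.47% in CON (SD, n = 12 each, two-sided permutation p = 0.166, adjusted p = 0.961 over 33 tests). None of the 33 tests of 11 library measures in 3 comparisons had an adjusted p under 0.961. The part of these shares in the gene results was not tested.

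ENSRNOG00000016275 is itself a member of the liver-enriched set, and also of the 100 genes higher in hippocampus than in prefrontal cortex. It was followed because of its level. Its median was 8673 CPM in liver, with 32.9 CPM in hippocampus and 0.41 CPM in prefrontal cortex. In LP it was at 6343 CPM in LPEx rat 10 and 1098 CPM in LPSed rat 10, and between 2.28 and 63.9 CPM in the other 10 libraries. In CON it was at 13711, 5908, 4737, and 2670.5 CPM in CONEx rat 7, CONSed rat 4, CONEx rat 5, and CONEx rat 12, and between 10.1 and 363 CPM in the other 8. So 2 of 12 LP and 4 of 12 CON libraries were above 1000 CPM (log2 fold change -2.04 ± 1.25, FDR = 1). Among 1873 variable genes, 61 others correlated with it at r > 0.8 across the 24 libraries, as a description. Their median log2 fold change was -1.18. An unadjusted p under 0.05 was found for 9 of the 61, all lower in LP, against 1.57% lower among all genes tested. Because the 61 were picked by correlation over the same libraries, their common direction follows in part from that choice. The gene and its partners were chosen after the data were seen.

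In sedentary rats, 0 genes differed between LPSed and CONSed at an FDR < 0.10 (0% of 15718, edgeR, smallest FDR 0.892). At an unadjusted p under 0.05 there were 551 genes (3.51%), 192 with a higher estimate in LPSed (1.22%) and 359 with a lower one (2.28%). The count was 306 without CONSed rat 6, 256 without CONSed rat 7, 353 without LPSed rat 7, 841 without CONSed rat 3, and 1004 without CONSed rat 10. Without the 7 libraries described with the comparison of activities 347 were higher and 338 lower in LPSed, and with the rat number as a block 67 were higher and 60 lower. Voom called 0 (396 at p under 0.05) and DESeq2 called 5 (662 at p under 0.05), 4 higher and 1 lower in LPSed. Levels did not overlap between the groups for 10 genes above (0.0636%) and 8 genes below (0.0509%).

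ENSRNOG00000010589 was 1 of those 10. It was at 8.01, 5.29, 5.18, 11.1, 3.49, and 5.47 CPM in LPSed, against 1.61, 1.24, 1.37, 0.60, 1.14, and 1.77 CPM in CONSed. The log2 fold change was 2.30 ± 0.48 (FDR = 0.892 by edgeR) and the DESeq2 FDR was 0.00617. It was 2.49 without the 3 libraries. In exercised rats its medians were 2.95 CPM in LPEx and 2.71 CPM in CONEx, with overlapping levels, and 3 of 6 LPEx and 3 of 6 CONEx libraries were at 3 CPM or more. LPASed rats had a median of 1.92 CPM. Colon (11.2 CPM) and muscle (9.83 CPM) had higher medians than hippocampus (2.96 CPM).

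The other 3 genes named for sedentary rats rested on few libraries. ENSRNOG00000002960 was at 5.16 CPM in LPSed rat 4 and 4.83 CPM in LPSed rat 13, between 0.40 and 1.34 CPM in the other 4 LPSed libraries, and at most 0.51 CPM in CONSed (log2 fold change 2.64 ± 0.64, FDR = 0.945, DESeq2 FDR = 0.0937). LPSed rat 13 is 1 of the 3 libraries left out in the second set of fits. ENSRNOG00000047864 was at most 0.89 CPM in LPSed, and in CONSed it was at 37.2 CPM in rat 6, 14.3 CPM in rat 7, and at most 1.62 CPM in the other 4 (log2 fold change -3.88 ± 0.92, FDR = 0.945, DESeq2 FDR = 0.00617). ENSRNOG00000029865 had 2 counts in all 6 LPSed libraries together and 334 in CONSed, of which 299 were in CONSed rat 3. No fold is given for so few counts.

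Of the 5 genes called by DESeq2, ENSRNOG00000051591 and ENSRNOG00000003064 lie outside the naming rule and were added after their values were seen. ENSRNOG00000051591 was at 46.2 CPM in LPSed rat 5 and at most 3.88 CPM in every other LPSed, LPEx, CONSed, and CONEx library. In LPASed hippocampus it reached 76.6 CPM, and 2 of 6 libraries were at 3 CPM or more. ENSRNOG00000003064 had 0 counts in all 6 CONSed libraries, 88 counts in 5 of 6 LPSed libraries, and 43 and 46 counts in all LPEx and all CONEx libraries.

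In exercised rats, 0 genes differed between LPEx and CONEx at an FDR < 0.10 (0% of 15718, edgeR, smallest FDR 0.989). At an unadjusted p under 0.05 there were 643 genes (4.09%), 412 with a higher estimate in LPEx (2.62%) and 231 with a lower one (1.47%). The balance turned without LPEx rat 10 (375 higher, 481 lower in LPEx). DESeq2 called 0 (687 at p under 0.05) and voom 0 (1756 at p under 0.05, 694 higher and 1062 lower). Levels did not overlap for 17 genes above (0.108%) and 19 below (0.121%).

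ENSRNOG00000011541, the most abundant gene named here, was at 60.7, 41, 51.1, 48.9, 75.4, and 53.1 CPM in LPEx, against 21.9, 34.9, 32.2, 37.3, 41, and 34.4 CPM in CONEx. The log2 fold change was 0.72 ± 0.17 (FDR = 0.989). In CONSed the gene was at 44.3 to 58.5 CPM, within the range of LPEx, LPSed had a median of 44.1 CPM, and CONEx had the lowest median of the 4 groups (34.7 CPM). The lowest LPEx library and the highest CONEx library met at 41 CPM. ENSRNOG00000007581 was at 0.07, 0.56, 0.91, 1.43, 0.12, and 1.42 CPM in LPEx, against 3.46, 8.08, 2.41, 2.20, 2.03, and 3.56 CPM in CONEx, with no overlap (log2 fold change -2.28 ± 0.56, FDR = 0.989).

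ENSRNOG00000018867 had 2.23 to 6.79 CPM in LPEx (median 4.27) and 2.74 to 20.2 CPM in CONEx (median 9.50), and its log2 fold change was -1.34 ± 0.36 (FDR = 0.989). ENSRNOG00000007509 was at 144 CPM in LPEx rat 10 and at 1.74 to 6.39 CPM in the other 5 LPEx libraries, against 1.22 to 4.57 CPM in CONEx. Its log2 fold change was 3.26 ± 0.77 with that library (FDR = 0.989) and 0.71 without it and the 3 others (FDR = 0.715).

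**Figure D4:**
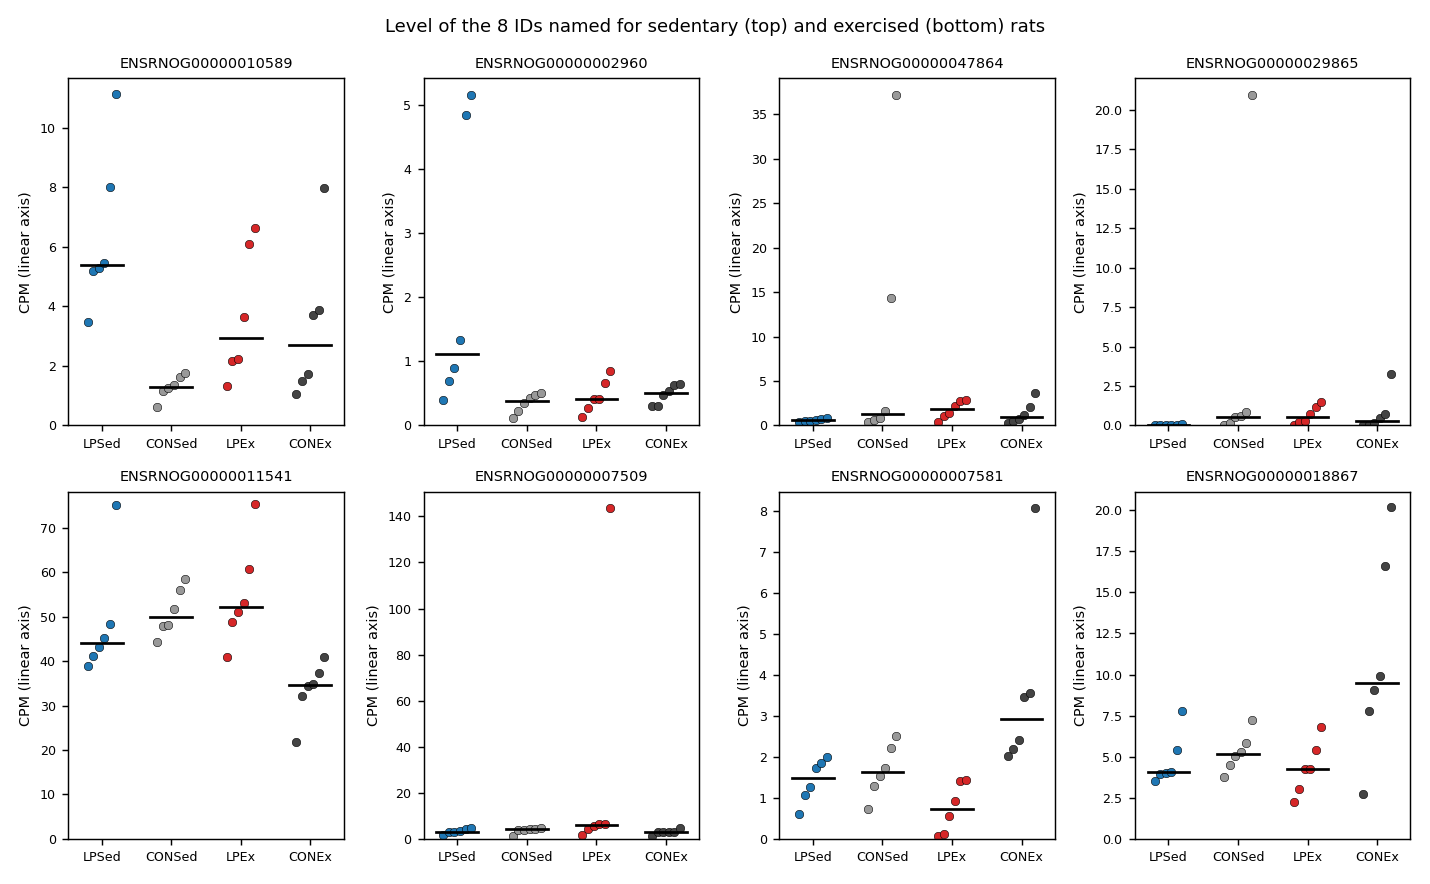
CPM (linear axes from 0) in each hippocampus library of the 4 IDs named for sedentary rats (top row) and the 4 named for exercised rats (bottom row), with group medians as bars (n = 6 per group). Only ENSRNOG00000010589 in the sedentary groups and ENSRNOG00000007581 in the exercised groups separate without overlap.

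The probiotic difference was then compared between activities. For the interaction, (LPEx - CONEx) - (LPSed - CONSed), 0 genes had an FDR < 0.10 (0% of 15718, edgeR, smallest FDR 0.794), 786 had an unadjusted p under 0.05 (5%), 514 above 0 (3.27%) and 272 below (1.73%), and DESeq2 and voom called 0 (872 and 707 at p under 0.05). By edgeR the count at p under 0.05 was 1333 without CONSed rat 3, 460 without CONSed rat 6, 438 without CONSed rat 7, and 486 without LPEx rat 3. The balance turned without LPEx rat 10 (534 above 0, 583 below) and by voom (273 above, 434 below). ENSRNOG00000007455 had the pattern of opposite estimates: 12.8 to 22.5 CPM in LPSed and 13.9 to 32.6 CPM in CONSed, and 21.5 to 50.8 CPM in LPEx and 12.7 to 21.2 CPM in CONEx (interaction 1.27 ± 0.32, FDR = 0.794). ENSRNOG00000025350 had medians of 4.73 CPM in LPSed and 7.51 CPM in CONSed, and 7.45 CPM in LPEx and 5.08 CPM in CONEx (interaction 1.29 ± 0.34, FDR = 0.794). In the other direction, ENSRNOG00000001515 had medians of 9.41 CPM in LPSed and 6.34 CPM in CONSed, and 6.17 CPM in LPEx and 13.1 CPM in CONEx (interaction -1.39 ± 0.40, FDR = 0.794). ENSRNOG00000051002 was at 3 CPM or more in 2 of 6 LPSed and 0 of 6 CONSed libraries, and in 1 of 6 LPEx and 4 of 6 CONEx libraries (interaction -6.61 ± 1.64, FDR = 0.794).

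Estimates at both activities came from different rats. Across the 15718 genes they had a Pearson r of 0.003 and a Spearman rho of -0.15, and 40.4% of genes had the same sign. Among the 5000 genes with the most counts the values were -0.20, -0.37, and 32.1%. These describe genes, which are not independent replicates. The first principal component of the 24 libraries held 24% of the variance, and CONSed rat 7, LPEx rat 3, and CONSed rat 6 had the highest scores on it (0.57, 0.50, and 0.36). LPEx rat 10 had the lowest score (-0.42), and the sign of a component is arbitrary. CONSed rat 7 and CONSed rat 6 belong to CON in the sedentary comparison, and LPEx rat 3 and LPEx rat 10 belong to LP in the exercised one. Without the 3 libraries, rho was -0.18 over all genes and 28.3% of the 5000 genes with the most counts had the same sign. Without LPEx rat 10 as well, these values were -0.26 and 24.8%. Without these 4 and CONSed rat 7, LPEx rat 3, and CONSed rat 6, a set of 7 chosen after the data were seen from these scores, they were 0.06 and 55%. Because the set was picked from a component of the same libraries, a weaker pattern without it follows in part from that choice. The part of these libraries in the opposite signs was not tested.

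**Figure D5:**
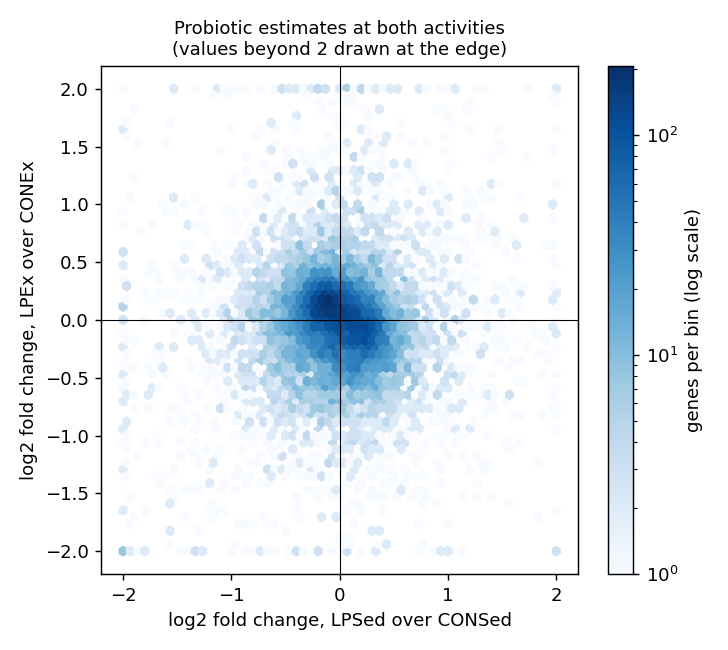
Log2 fold change of LPSed over CONSed (horizontal axis) against that of LPEx over CONEx (vertical axis) for 15718 genes, with the shade giving the number of genes per bin on a log scale. The cloud leans to opposite signs, with 40.4% of genes sharing a sign.

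In the same rats the prefrontal cortex was also sequenced, and the difference between regions was tested within each of the 24 rats. For hippocampus minus prefrontal cortex, 0 of 15007 genes had an FDR < 0.10 for LP against CON (0%, limma, 443 at an unadjusted p under 0.05, 2.95%). The prefrontal cortex alone also had 0 genes at an FDR < 0.10 (447 at p under 0.05). The prefrontal library of CONSed rat 7 lay at 0.62 on the hippocampal genes and 0.68 on the prefrontal genes of the scale above. Without the 3 libraries and this rat, chosen after the data were seen, 0 of 15255 genes passed (712 at p under 0.05). For ENSRNOG00000015201 the log2 difference of LP and CON was 0.70 in hippocampus and -0.001 in prefrontal cortex, a difference of 0.70 ± 0.20 (FDR = 1). For ENSRNOG00000014452 it was -0.83 in hippocampus and 0.35 in prefrontal cortex, a difference of -1.19 ± 0.40 (FDR = 1). Both genes were named for a small p in these same hippocampus libraries, so a gap between the regions follows in part from that choice.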

How the data were processed

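RNA of 24 hippocampus libraries (LP and CON, with and without exercise, 6 rats each) was analysed from the counts that the authors deposited, as whole-number read counts per Ensembl gene ID without normalization. The authors prepared polyA libraries, checked reads with FastQC, trimmed with Trim Galore and cutadapt, and aligned to Rnor_5.0 with STAR; versions, annotation release and strandedness are not given in the sources used here, so overlapping and antisense genes cannot be told apart. Total counts were 13203828 to 21779598 per library.

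From the counts, edgeR 4.0.16 (R 4.3.3) fitted its default filter on low counts, TMM scaling and quasi-likelihood F tests: activity plus treatment for LP versus CON, and a factor of 4 groups for each activity and the interaction. Calls needed an FDR < 0.10, and a differentially expressed gene also an absolute log2 fold change over 1. Levels are CPM on TMM-scaled library sizes. Hippocampus minus prefrontal cortex within a rat used limma 3.58.1 on log2 CPM (prior count 2). Library measures used two-sided permutation tests, exact for 6 against 6 and with 100000 resamples otherwise, adjusted by Benjamini-Hochberg. DESeq2 1.42.0 and limma voom were alternatives. Voom was run with library quality weights, which give less weight to libraries far from the fit. Figures used Python 3.11.15 and matplotlib 3.10.9.

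Named genes are the smallest p in each direction, limited to 2 higher and 2 lower IDs per comparison because no ID could be paired with a name. The gene lists and cell type markers chosen by symbol could not be used, and genes enriched in a tissue (at least 20 CPM and 10-fold above the others, after adding 0.5 CPM) or a brain region (at least 10 CPM and 3-fold) replaced them. Members and lists were chosen with earlier results of these data known. P-values measure the spread between these rats. On simulated data for LP versus CON (15420 genes), edgeR recovered 42% of 1.5-fold changes, 68% of 2-fold ones and 93.8% of 4-fold ones. Of its 95% intervals, 95.2% held the true value. DESeq2 recovered 44%, 80%, and 97.9% of the same changes. Among 15225 genes simulated without a change, 16 were called by edgeR, 53 by DESeq2, and 23 by voom. The simulated counts were independent between genes, and no library was set apart as a whole. These rates therefore need not hold for the real libraries.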

Additional observations from a re-analysis of the deposited data

Results flagged for a closer look

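Of 108 sets of 6 libraries (single genes and library measures by group), 19 held a library far from the other 5. The named genes were picked by p-value in these same data, so no chance rate can be set against this count. Many of the 19 share a library. Their causes were not tested.

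LPEx rat 10 was the highest of its group for ENSRNOG00000015201 (54.5 CPM) and ENSRNOG00000007509 (144 CPM), and for the share of counts in genes enriched in liver (1.09%), colon (0.22%), and muscle (0.29%). It was the lowest for brain-enriched genes (15.3%) and for the position on hippocampal genes (0.47).

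CONSed rat 3 was the lowest of its group on the hippocampal genes (0.57), and the highest for the prefrontal share of counts (0.29%) and for ENSRNOG00000029865 (21 CPM). CONEx rat 7 was the highest of its group for the liver-enriched share (1.91%), ENSRNOG00000029865 (3.25 CPM), ENSRNOG00000007581 (8.08 CPM), and ENSRNOG00000051002 (28.2 CPM).

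The rest were single values: LPEx rat 8 for ENSRNOG00000008873 (12.2 CPM), LPSed rat 7 for ENSRNOG00000011541 (75 CPM), LPSed rat 13 for ENSRNOG00000025350 (8.39 CPM), and LPEx rat 4 for ENSRNOG00000051002 (4.38 CPM) were the highest of their groups, and CONSed rat 4 for ENSRNOG00000007509 (1.39 CPM) was the lowest.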

How the results depend on the processing

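The count of 0 genes at an FDR < 0.10 held in all 4 comparisons under limma voom, relative log expression size factors, no filter on low counts, all 36 libraries in 6 groups, the rat number as a replicate block, without CONSed rat 3, LPSed rat 7 and LPSed rat 13, and in each of the 24 fits without 1 library (range 0 to 0). It held for LPSed and LPEx against their controls with only the 2 groups compared. DESeq2 called 1 gene for LP versus CON and 5 for LPSed versus CONSed. The count of genes at an unadjusted p < 0.05 moved more: for LP versus CON from 323 without LPSed rat 7 to 747 without LPEx rat 3, and it was 286 with the rat number as a block, 1401 by voom, and 1735 with no filter. Leaving out 1 library gave 256 (without CONSed rat 7) to 1004 (without CONSed rat 10) for LPSed versus CONSed, 510 (without LPEx rat 3) to 856 (without LPEx rat 10) for LPEx versus CONEx, and 438 (without CONSed rat 7) to 1333 (without CONSed rat 3) for the interaction. The alternatives chosen after the data were seen, without 4 and without 7 libraries, also gave 0. Same-numbered rats of different groups showed little common variation (median r 0.05 over 19 pairs, 4 over 0.1, and 2 of 24 libraries closest to one of their own number). The block gave 0 genes in all 4 comparisons. This check covers equal numbers alone and cannot exclude other groupings of the rats. The paper adjusted its microbiome analysis for cohort, and the sample labels used here give no cohort. Of 534 alternative values of the 16 named results, 530 kept their direction and side of the threshold, and 4 passed under DESeq2 only. The 16 were picked by small p, and most alternatives share nearly all libraries, so kept directions were largely fixed beforehand. DESeq2 gave no FDR for ENSRNOG00000029865 and ENSRNOG00000007509, and these values are counted as kept. Among the lowest-expressed genes 45.6% of intervals lay within 2-fold, and the part of depth in this was not tested.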
